A study of Mus musculus with 4 samples.

Results

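A set of 2046 distal accessible chromatin regions was examined in EpRas cells, all of them present in the FAIRE-seq list of untreated cells and absent from every list of cells treated with TGF-β. They were chosen by their presence in the lists. A member is an autosomal peak of the untreated list whose middle lies more than 2 kb from any annotated transcription start site (TSS) and which overlaps, even by 1 bp, no peak of the 3 TGF-β lists. The untreated list held 22247 peaks, of which 22062 were autosomal and 13267 of these distal, so that the members were 15.42% of the distal regions. The 5537 distal regions that were called in all 4 lists are named constant below and served for comparison. Since the rule fixes where a member was called, its absence from the TGF-β lists is not a finding. The word closed stands for not called here.

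EpRas cells are a mouse mammary gland epithelial line transformed with active H-Ras, and TGF-β drives them into the epithelial-mesenchymal transition (EMT). FAIRE-seq sequences the DNA that stays free of protein after formaldehyde crosslinking and so marks accessible chromatin. All 4 groups were transfected with siRNA and harvested at day 4. They were control siRNA (siControl) left untreated, siControl with 1 ng/ml TGF-β3, and the same TGF-β3 treatment with siEtv4/5 set 1 or set 2, which are separate pairs of siRNAs against the ETS factor genes Etv4 and Etv5. Each group had 1 deposited list from 1 cell line and no second list to set beside it, so treatment, siRNA and library cannot be told apart and no p-value is given. Shares are followed by 95% Wilson intervals, which cover counting error only, and regions are not independent replicates. Library depth was estimated from the peak lists, as the lowest background divided by the width of the narrowest peak. On this estimate the depth of the untreated library was 0.939 times that of siControl with TGF-β, against 1.06 times for set 1 and 1.27 times for set 2. Of 8 epithelial and mammary marker genes, 6 had a peak within 2 kb of a TSS in the untreated list, among them Epcam, Cdh1, Krt8, Krt18 and Krt14. No such peak was called at Krt5 or Elf5 in untreated cells. RNA and the level of the knockdown were not measured in these libraries.

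Distal accessible regions are held open by transcription factors that bind them. AP-1, a dimer of Jun and Fos family proteins, and the ETS factors act downstream of Ras and are common at enhancers of transformed epithelial cells. CTCF is a zinc finger protein that binds a long motif throughout the genome, anchors chromatin loops together with cohesin and blocks contacts between enhancers and promoters. ZEB and SNAI proteins are repressors that bind E-boxes in epithelial genes, and GRHL factors maintain epithelial junction genes.

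The sequences around the summits of the strongest members are shown as examples, where strongest means of highest fold enrichment. Equal strength in later comparisons refers to summit fragments instead. The examples do not stand for the set, in which 15.0% held a complete CTCF match and 58.4% neither this nor AP-1 in 500 bp. Each stretch is 160 bases of the plus strand of GRCm38 (mm10), with matches to AP-1 (TGANTCA), ETS (CCGGAAG or CAGGAAG) or the CTCF motif of 14 letters in capitals, with 1 mismatch allowed for CTCF. The following 5 members had the highest fold enrichment in untreated cells.

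Zfp385b (chr2:77709378-77709537): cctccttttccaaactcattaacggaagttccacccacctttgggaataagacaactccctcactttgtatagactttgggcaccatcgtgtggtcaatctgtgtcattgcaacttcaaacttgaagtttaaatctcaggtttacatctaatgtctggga

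Ankrd44 (chr1:54832864-54833023): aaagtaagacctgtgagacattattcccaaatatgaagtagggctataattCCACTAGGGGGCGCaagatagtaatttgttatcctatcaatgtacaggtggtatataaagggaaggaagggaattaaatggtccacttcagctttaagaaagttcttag

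2010111I01Rik (chr13:62964783-62964942): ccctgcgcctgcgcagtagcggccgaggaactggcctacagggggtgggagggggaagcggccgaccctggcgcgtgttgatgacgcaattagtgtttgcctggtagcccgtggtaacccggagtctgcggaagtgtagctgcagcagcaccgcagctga

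Pkhd1 (chr1:20513838-20513997): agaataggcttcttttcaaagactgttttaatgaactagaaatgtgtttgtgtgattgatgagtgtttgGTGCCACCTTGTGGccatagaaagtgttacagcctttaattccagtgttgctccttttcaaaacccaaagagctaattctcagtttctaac

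Aqp12 (chr1:93014576-93014735): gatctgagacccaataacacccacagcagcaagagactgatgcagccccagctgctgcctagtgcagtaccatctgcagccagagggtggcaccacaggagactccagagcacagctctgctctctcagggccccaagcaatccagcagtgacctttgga

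The region in an intron of Ankrd44 held a complete CTCF match next to its summit, and the region in an intron of Pkhd1 held one with 1 mismatch. The other 3 had no AP-1 or ETS match and no CTCF match within 1 mismatch in the stretch shown. The next 3 regions are the strongest remaining members with a complete CTCF match, and they were added to the display after the values had been seen.

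Krt28 (chr11:99379696-99379855): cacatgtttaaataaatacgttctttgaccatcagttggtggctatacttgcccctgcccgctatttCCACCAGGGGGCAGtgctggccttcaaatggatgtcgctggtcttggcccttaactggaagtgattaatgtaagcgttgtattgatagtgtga

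Defb30 (chr14:63066773-63066932): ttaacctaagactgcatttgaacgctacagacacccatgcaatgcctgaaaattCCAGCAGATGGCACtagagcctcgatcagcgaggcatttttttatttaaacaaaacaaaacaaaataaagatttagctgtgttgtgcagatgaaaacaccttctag

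Arpc1a (chr5:145069847-145070006): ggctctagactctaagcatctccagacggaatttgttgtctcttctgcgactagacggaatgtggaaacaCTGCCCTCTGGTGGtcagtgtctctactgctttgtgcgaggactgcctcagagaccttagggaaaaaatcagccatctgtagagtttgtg

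For contrast, the strongest member with an AP-1 match is followed by the 2 strongest constant regions with one. In these 3 sequences the capitals mark AP-1.

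Adgrb1 (chr15:74566835-74566994): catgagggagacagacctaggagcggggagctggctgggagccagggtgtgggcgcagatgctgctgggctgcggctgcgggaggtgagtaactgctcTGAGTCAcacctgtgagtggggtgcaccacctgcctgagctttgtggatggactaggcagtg

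Polr2f (chr15:79131609-79131768): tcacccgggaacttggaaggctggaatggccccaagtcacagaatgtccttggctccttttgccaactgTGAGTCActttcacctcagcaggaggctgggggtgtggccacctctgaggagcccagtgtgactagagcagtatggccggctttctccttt

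Bbc3 (chr7:16326268-16326427): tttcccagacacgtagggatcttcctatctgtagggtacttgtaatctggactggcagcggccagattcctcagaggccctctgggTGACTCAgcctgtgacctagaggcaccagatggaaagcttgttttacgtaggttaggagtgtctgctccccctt

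The member of highest fold enrichment lay on chromosome 2 at 77709372 to 77709546, within an intron of the zinc finger gene Zfp385b, whose nearest TSS was 6.19 kb away. Its fold enrichment, the authors' ratio of summit signal to local background, was 14.7 in untreated cells, with 29 fragments at the summit. Other members held up to 39 fragments. The nearest peak of siControl with TGF-β was 236.8 kb away. The second, on chromosome 1 at 54832857 to 54833024, lay in an intron 93.4 kb from the TSS of Ankrd44, with a fold enrichment of 13.9 and also 29 fragments. The third, with a fold enrichment of 13.2, was intergenic on chromosome 13 at 62964769 to 62964944 and lay 50.1 kb from the TSS of 2010111I01Rik. The next 5 members had the same fold enrichment of 12.7 and 25 fragments each. They lay in introns at Pkhd1, the gene of the cilium protein fibrocystin, at Klhl3 and at Adgrb1, and between genes near the aquaporin gene Aqp12 and near Tmem183a. The list of 10 ended with intergenic regions near Ttll6, with a fold enrichment of 12.6, and near the hair follicle keratin gene Krt28, with 12.2. Of these 10 regions, only the one at Adgrb1 held AP-1 in its 500-bp window, and those at Ankrd44 and Krt28 held CTCF. The constant regions shown were stronger, with a fold enrichment of 18.02 and 47 fragments in an intron of a neighboring gene 9.32 kb from the TSS of Polr2f and 17.6 and 38 fragments in an intron of a neighboring gene 16.8 kb from that of Bbc3, the gene of the apoptosis inducer PUMA.

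As a set the members were weak. Fold enrichment ran from 4.14 to 14.7 with a median of 7.61, against 8.31 in constant regions. The median summit held 17 fragments, with an interquartile range of 15 to 19, and constant summits held 23, with a range of 19 to 28. Only 90 members (4.40%) reached 25 fragments, against 42.0% of constant regions. The members were also narrower, at a median of 141 bp against 210 bp, and 40.7% of them stood on the lowest background the caller allows, against 6.72%. Their median GC content of 45.8% was close to the 47.4% of constant regions.

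At the lowest background a region had to hold 12 fragments with set 2, and 11 in the other TGF-β lists, to be called at all. Scaled to the estimated depth of the untreated library, the highest of these limits was 10.3 fragments. In untreated cells 1351 members (66.03%) held more than 1.5 times this limit and 353 (17.3%) more than 2 times. All distal regions were stronger, with a median of 20 fragments and a lower quartile of 17, against 17 and 15 in members. These fragments come from the list that selected the members. The limit holds only at the lowest background, on which 40.7% of members stood, and on a higher background more fragments are needed. At 16 to 17 fragments, 23.0% of all distal regions were called in all 4 lists. A region near the limit can be missed through counting error alone, and the part of counting error in the 2046 absences was not tested. The background share of absent distal regions was 21.85% for siControl with TGF-β, 33.55% for set 1 and 51.74% for set 2, and leaving siControl with TGF-β out of the rule raised the number of members to 3760. The limits of the rule were sharp in base pairs. The member closest to a TSS lay 2011 bp from Ttyh2, and the farthest closed peak left out as promoter-near lay 2000 bp from Cbx6. A member near 1700006H21Rik was 4 bp short of a TGF-β peak. The weakest member, near Fgl2, had 10 fragments and a -log10 q-value of 5.03.

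AP-1 was the motif with the largest difference in percentage points, while the ratio of shares was larger for CTCF. AP-1 was found in the 500-bp windows of 585 members, or 28.6% (26.7 to 30.6), and in 67.8% (66.5 to 69.0) of constant regions. Since members were weaker, constant regions were weighted to the members' distribution of summit fragments, and their share was then 67.2% (65.1 to 69.2). The difference, members minus constant regions, was -38.6 percentage points, with an interval of -41.4 to -35.7. Weighting on GC content as well gave 67.9% in constant regions. Windows 5 kb to either side of the members held AP-1 in 13.6% (12.6 to 14.7), so the members had 2.101 times the AP-1 share of their surroundings, and constant regions 4.605 times. Over all distal regions of the untreated list the share was 53.5%. Windows with at least 2 AP-1 matches made up 4.55% of members and 23.8% of constant regions of equal strength. In members with AP-1 the nearest match lay a median of 38.5 bp from the summit, and 57.7% (53.7 to 61.7) had one within 50 bp. In constant regions the median was 28.5 bp and the share 71.4% (69.9 to 72.8).

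CTCF was more frequent in members. A complete match was present in 306 members, or 15.0% (13.5 to 16.6), in 3.41% of constant regions and in 4.06% (3.29 to 5.01) of those at equal strength, a difference of 10.9 percentage points (9.14 to 12.7). In the windows 5 kb away it was found in 0.171%, and in all distal regions in 7.60%. With 1 mismatch allowed, which was tried after the complete matches had been counted, the motif was present in 38.3% (36.2 to 40.4) of members, 11.8% (10.5 to 13.3) of constant regions of equal strength and 1.96% of the windows 5 kb away. The matches sat on the summits. Of the members with a complete match near the summit, 95.4% (92.5 to 97.3) had it within 50 bp, at a median of 15 bp, against 81.0% (74.8 to 85.9) and 24 bp in constant regions. Among the 100 members of highest fold enrichment, 20 held a complete CTCF match (13.3 to 28.9%), an interval that includes the share of all members. CTCF within 1 mismatch was present in 57 of them and AP-1 in 18.

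**Figure D1:**
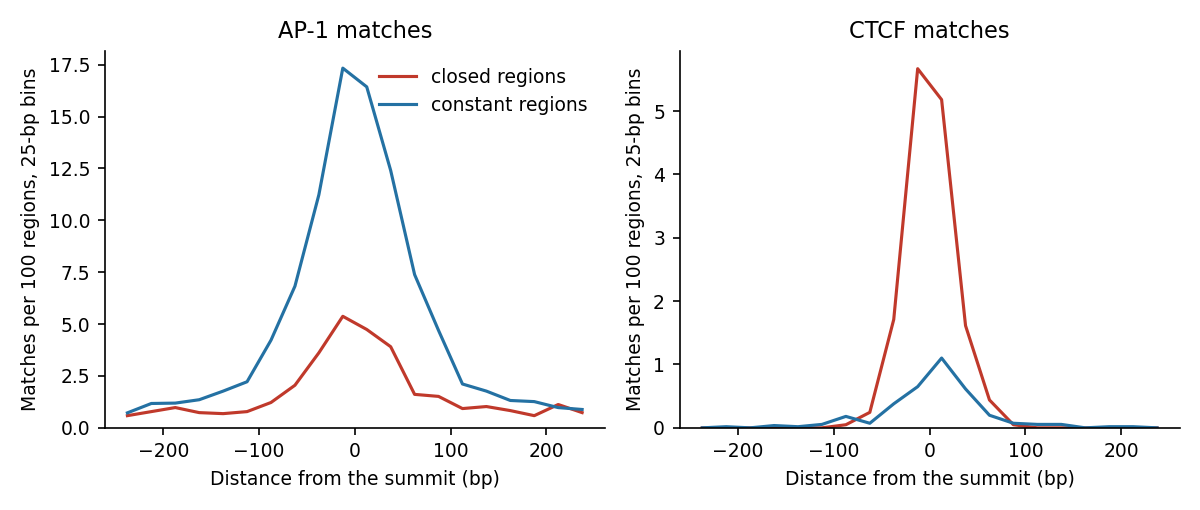
Matches to AP-1 (left) and CTCF (right) per 100 regions in bins of 25 bp, against the distance from the summit in bp, for 2046 closed regions (red) and 5537 constant regions (blue). AP-1 peaked at the summits of constant regions, at 17.3 matches per 100 regions in a bin against 5.38 in closed regions, while CTCF reached 5.67 per 100 closed regions in the bin next to the summit.

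The CTCF share depended on strength and on how strength was measured. In the 100 members of highest fold enrichment it was 20%, whereas by summit fragments it was low among the strongest members. The share was 9.82% (6.58 to 14.42) in members of 10 to 13 fragments and 17.9% (14.3 to 22.1) in those of 18 to 19. It was 3.95% (1.35 to 10.98), or 3 of 76, at 25 to 29 fragments, and 0 of the 14 members above this had a match, which allows a share of up to 21.5%. Over the 90 members of at least 25 fragments the share of 3.33% differed from constant regions by 0.321 percentage points (-2.11 to 6.39), so a difference in CTCF was not detectable among members of at least 25 fragments. The AP-1 share went from 34.8% (28.9 to 41.3) at 10 to 13 fragments to 24.7% (20.5 to 29.3) at 18 to 19 and 30.3% (21.1 to 41.3) at 25 to 29, and 2 of the 14 members above this had a match, or 14.3% (4.01 to 39.9). In members of at least 25 fragments the AP-1 share still differed from that of constant regions by -40.5 percentage points (-49.0 to -30.1).

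Words of 7 bases were counted without a motif list in 200 bp around the summits, on both strands, as a check added after the motif search. The word most reduced in members against constant regions was TGACTCA, a form of the AP-1 motif, at 16.96% against 53.6%. The words most raised were AGGTGGC at 14.3% against 5.71%, CCACTAG at 11.98% against 3.79% and AGAGGGC at 14.8% against 7.06%. The word AGGGGGC, which is part of the CTCF match of the Ankrd44 region shown above, stood at 9.58% against 2.98%.

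Of the 33 motifs searched on both strands, 8 were less frequent in members than in constant regions of equal strength, in the sense that the interval of the difference lay below 0, and 3 were more frequent. ETS was found in 22.4% (20.6 to 24.2) of members and 30.0% of constant regions. TEAD (ACATTCC or GCATTCC), the motif of the Hippo pathway factors, was found in 15.1% and 20.8%, and RUNX (TGTGGTT) in 15.2% and 18.4%. TFAP2 (GCCNNNGGC) stood at 11.98% and 15.6%, and the E-box CAGCTG at 24.9% and 30.4%. The remaining reduced motifs were NF-kB, at 5.33% and 7.44%, and the rare RFX half-site (GTTGCCAT), at 1.12% and 2.02%. The surroundings of the members held ETS in 19.2% (17.98 to 20.4), so the members had 1.17 times this share. Beside CTCF, the motifs raised were the ZEB/SNAI E-box CACCTG, in 37.8% (35.7 to 39.9) of members and 31.3% of constant regions, and GRHL (AACCNGTT), in 4.55% (3.72 to 5.54) and 3.25%. The GRHL difference had an interval of 0.107 to 2.50, and no allowance was made for the 33 motifs. Without weighting, GRHL was found in 3.76% (3.29 to 4.29) of constant regions, which overlaps the interval of the members. CACCTG can overlap a CTCF match, and outside complete matches it was found in 36.2% (34.2 to 38.3) and 30.8% (28.8 to 32.8). CTCF within 1 mismatch was present in 38.3% of members and 11.8% of constant regions of equal strength. These near-matches were not left out, so the part they have in the CACCTG difference was not tested. The surroundings of the members held CACCTG in 32.4% and GRHL in 3.18%. None of AP-1, ETS, TEAD, RUNX or complete CTCF was present in 31.6% (29.6 to 33.7) of members, against 12.2% (10.8 to 13.7) of constant regions of equal strength. A match here is a stretch of letters and does not show that a factor was bound.

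**Figure D2:**
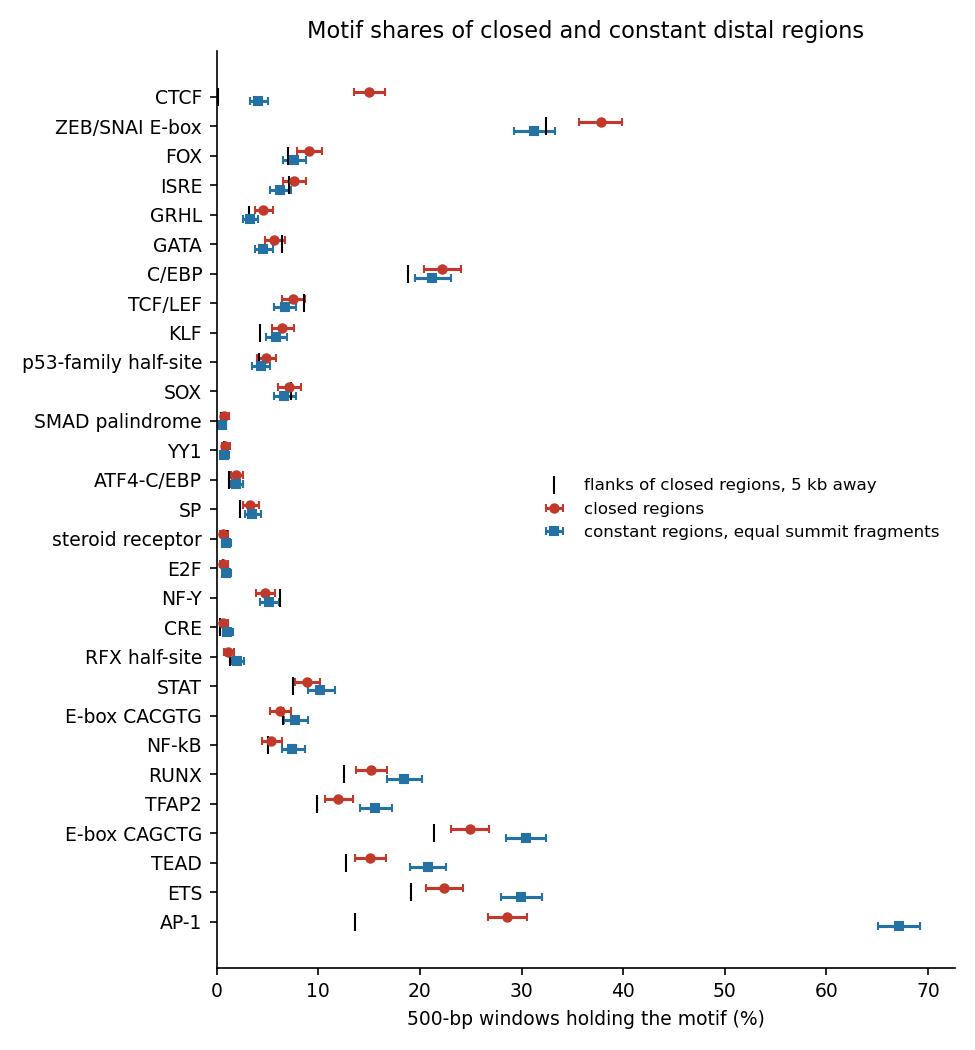
Share (%) of 500-bp windows holding each motif, in closed regions (red circles), constant regions weighted to equal summit fragments (blue squares) and windows 5 kb from closed regions (black bars), with 95% intervals for the first pair. The 29 motifs found in at least 10 members are ordered by the difference, from CTCF at 15.0% against 4.06% to AP-1 at 28.6% against 67.2%.

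The same counts can be read by motif instead of by list. Of the 6936 regions with AP-1 and no CTCF, 546 were closed, or 7.87% (7.26 to 8.53). Of the 846 with CTCF and no AP-1, 267 were closed, or 31.6% (28.5 to 34.8), and of the 5323 with neither 1194, or 22.4% (21.3 to 23.6). The 162 regions with both motifs included 39 closed ones, 24.1% (18.1 to 31.2). Within bins of strength the closed share with AP-1 was below that with neither motif throughout, for instance 8.52% (6.93 to 10.4) against 25.3% (22.5 to 28.3) at 18 to 19 fragments and 1.97% (1.31 to 2.94) against 7.50% (5.73 to 9.75) at 25 to 29. Regions with CTCF lay above those with neither motif in the 6 bins below 25 fragments, but with overlapping intervals in each of them. At 18 to 19 fragments 32.6% (26.1 to 39.8) of them were closed. At 16 to 17 fragments the shares were 38.7% (32.1 to 45.7) with CTCF and 31.2% (28.3 to 34.3) with neither. The members with CTCF and no AP-1 had a median of 17 fragments, as did those with neither motif, against 16 with AP-1 alone. They stood on a lower background and had a median fold enrichment of 8.29, against 7.18 with AP-1 alone.

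**Figure D3:**
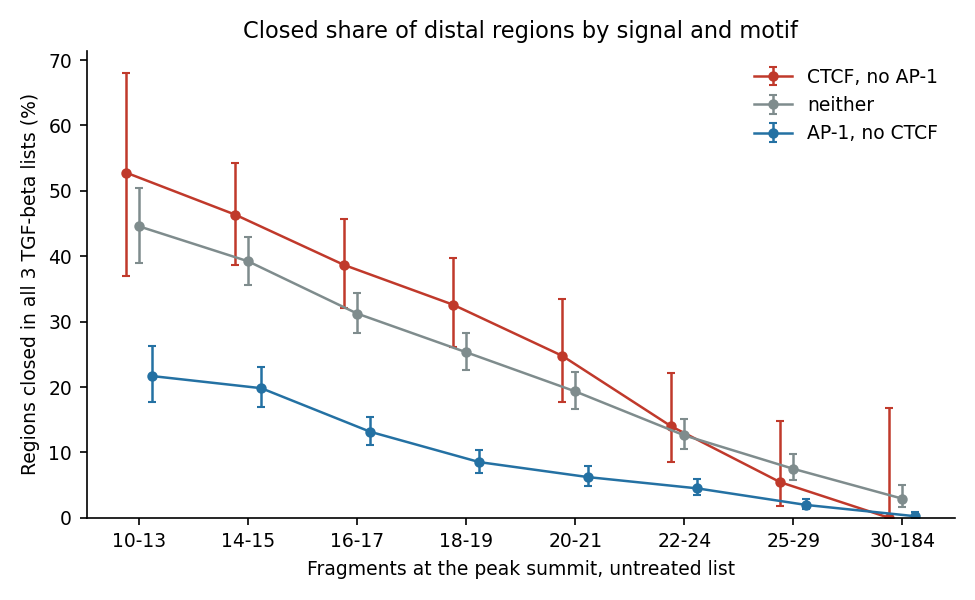
Share (%) of distal untreated regions that were closed in all 3 TGF-β lists, against the number of fragments at the summit, for regions with CTCF only (red), neither motif (grey) and AP-1 only (blue), with 95% Wilson intervals. The share was lower at higher strength in all 3 classes, from 52.8%, 44.6% and 21.7% at 10 to 13 fragments to 0%, 2.93% and 0.244% at 30 or more.

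The motif shares differed with the number of TGF-β lists that kept a region. AP-1 was found in 28.6% of members, 39.97% of regions kept by 1 TGF-β list, 54.8% of those kept by 2 and 67.8% of those kept by all 3. CTCF stood at 15.0%, 12.2%, 6.74% and 3.41% over the same steps. The 853 regions that were absent in siControl with TGF-β but called again with at least 1 siEtv4/5 set had shares close to those of the members, with AP-1 in 30.8% (27.8 to 34.0), CTCF in 14.8% and ETS in 23.3%. Regions called in 1 list alone differed between the lists. The 4545 distal regions called only in siControl with TGF-β, at a median of 18 fragments, held AP-1 in 57.6% (56.2 to 59.1) and CTCF in 4.53% (3.97 to 5.18). The 1598 called only with set 1 held AP-1 in 49.4% (46.9 to 51.8) and CTCF in 7.82% (6.60 to 9.24), and the 470 called only with set 2 in 37.9% (33.6 to 42.3) and 10.4% (7.98 to 13.5). The members thus had the lowest AP-1 share and the highest CTCF share of the 4 such sets. Over all distal regions, the untreated list held 1008 with a CTCF match (7.60%), and the TGF-β lists held 905 of 18733 in siControl, 677 of 14044 with set 1 and 401 of 8579 with set 2, or 4.83%, 4.82% and 4.67%. These lists share no sample, but each group has a single list, and the part of the library preparation in these shares was not tested.

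**Figure D4:**
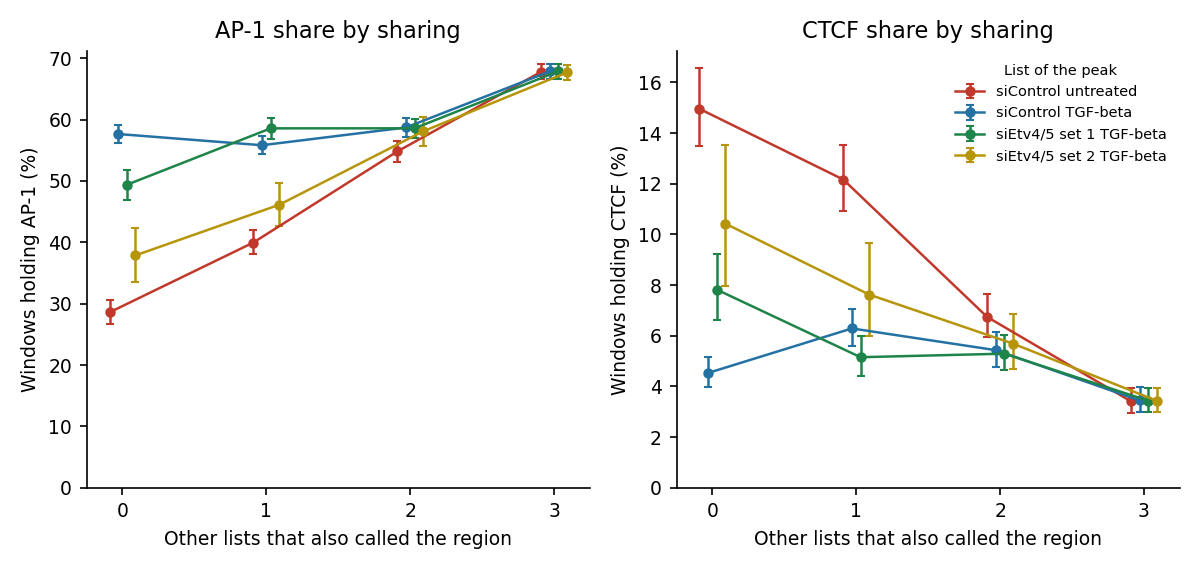
Share (%) of distal regions holding AP-1 (left) and CTCF (right), against the number of other lists that also called the region, for the peaks of each of the 4 lists, with 95% Wilson intervals. At 0 other lists, the members (untreated list, red) stood at 28.6% for AP-1 and 15.0% for CTCF, and regions called only in siControl with TGF-β (blue) at 57.6% and 4.53%, while all lists met near 68% and 3.4% at 3 other lists.

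Peaks within 2 kb of a TSS were outside the rule and gave a partly different picture. Of these, 682 autosomal ones were absent from all 3 TGF-β lists and held CTCF in 6.01% (4.46 to 8.05), against 1.57% (0.994 to 2.47) of the constant ones at equal strength. AP-1 stood at 15.5% (13.02 to 18.5) against 20.5% (18.3 to 23.0). Without weighting, the 5016 constant ones held AP-1 in 15.1% (14.1 to 16.1) and CTCF in 0.917% (0.688 to 1.22). The AP-1 share of the closed ones was thus lower only at equal strength, where the intervals just overlapped. Among distal regions called in all 4 lists, the 141 with CTCF and no AP-1 had a median ratio of fold enrichment in siControl with TGF-β to untreated of 1.00, and the 3705 with AP-1 and no CTCF of 1.15. The 1643 with neither motif had a ratio of 1.09. With set 1 the 3 ratios were 0.913, 1.01 and 0.991, and with set 2 they were 0.844, 0.859 and 0.860.

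In the genome the members were placed much like other distal regions. Introns held 51.3% (49.2 to 53.5), intergenic sequence 45.3% and exons 3.42%, against 50.6%, 46.2% and 3.23% of constant regions. The median distance to a TSS was 15.43 kb in members and 14.9 kb in constant regions, and the closed share stayed between 14.8% and 16.2% over 5 classes of distance. The closed share by chromosome ran from 10.5% (8.72 to 12.7) on chromosome 15 to 20.7% (17.7 to 24.1) on chromosome 6. Members were more isolated, since 41.1% had no other distal region of the untreated list within 50 kb, against 26.2% of constant regions. A second member within 50 kb was present for 18.04% of them, and a member lay this close to 18.4% of constant regions. The nearest peak of siControl with TGF-β lay a median of 15.7 kb away, and 38 members had one within 200 bp. One of these was the region near Ercc6l2, among the 3 strongest members with AP-1, which lay 0.048 kb from such a peak.

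The members were spread over 1790 nearest protein-coding genes, 1562 of which had 1 member and 204 had 2. The genes with the most members were Arhgap18, which encodes a GTPase activating protein, with 5 of its 10 distal regions, Ank2, the gene of ankyrin-B, with 4 of 9, and Map3k7, which encodes the TGF-β activated kinase TAK1, with 4 of 10. The members at Map3k7 lay 93.0 to 1182 kb from its TSS. Members at Arhgap18 had a fold enrichment of 5.25 to 8.54, and 2 of its regions were constant. These are the highest counts among the 1790 genes, beside a closed share of 15.42% over all distal regions, and a concentration at these genes was not tested. Nearness does not show that a region controls a gene.

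Gene lists were read against the 15.42% of all distal regions that were closed. This share was also weighted to the summit fragments of each list, and is then given as the share at equal strength. At genes of epithelial junctions and polarity 9 of 46 distal regions were closed, or 19.6% (10.7 to 33.2), and at epithelial transcription factors and splicing regulators 11 of 57, or 19.3% (11.1 to 31.3). Both intervals include the background. In the junction group the strongest members were an intergenic region 28.1 kb from Pard6b, a polarity gene, with a fold enrichment of 9.53, an intronic one at Tjp1, which encodes the tight junction protein ZO-1, with 8.44, and one in an intron of a neighboring gene 28.6 kb from the TSS of Ctnnb1, the β-catenin gene, with 8.33. Cdh1, the E-cadherin gene and a marker fixed for the cell type, had 2 members among its 3 distal regions, both in introns. The one on chromosome 8 at 106611060 to 106611211 had a fold enrichment of 7.36 and 27 fragments, and the one at 106616059 to 106616196 had 5.22 and 20 fragments. Both windows held a GRHL match and a match to ISRE, another motif searched, and only the second held AP-1 and the ZEB/SNAI E-box. The peak within 2 kb of the Cdh1 TSS, with a fold enrichment of 8.10 in untreated cells, was not called in siControl with TGF-β or with set 1 and was called with set 2, at 7.40. A promoter peak was called at 4 of the 8 markers in siControl with TGF-β, at 5 of them with set 1 and at 3 with set 2. The 4 in siControl were Krt8, Krt18, Krt14 and Esr1, each at a higher fold enrichment than in untreated cells, for instance 10.4 against 7.16 at Krt14. A higher fold enrichment in siControl with TGF-β was not particular to them, since the median of constant distal regions was 9.46 there against 8.31 in untreated cells.

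Among epithelial factors the members of highest fold enrichment were assigned to Sox9, at 8.80, Id4, at 7.76, and Klf5, at 7.50, all at least 157.6 kb from the TSS. Keratin genes held 3 closed regions of 16, or 18.75% (6.59 to 43.0), against 7.08% of all distal regions at equal strength. They lay near Krt7, Krt8 and Krt80, the last with 32 fragments at the summit. Mammary luminal and milk genes held 2 of 9, or 22.2% (6.32 to 54.7), against 15.0% at equal strength. These were 67.8 kb from Xdh and in an intron of Esr1, the estrogen receptor gene. The intervals of both lists include the background and the share at equal strength. EMT transcription factors had 6 of 40 closed, or 15.0% (7.06 to 29.1), near the background and against 11.7% at equal strength, which the interval includes. These included 2 regions 464.0 and 1395 kb from Zeb2 and 1 lying 68.7 kb from Twist2, with fold enrichments of 7.77, 9.77 and 6.84. Mesenchymal matrix and adhesion genes had 8 of 61, or 13.1% (6.80 to 23.8). A region 9.05 kb from the TSS of the collagen gene Col6a1 had a fold enrichment of 10.2. One in an exon, 14.1 kb from that of the smooth muscle actin gene Acta2, had 8.42. The region assigned to the fibronectin gene Fn1, with 7.52, lay 154.5 kb from its TSS.

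TGF-β pathway genes had 105 distal regions, of which 5 were closed, or 4.76% (2.05 to 10.7), and 59 were constant. After weighting all distal regions to the strength of these 105, 11.3% were closed. Map3k7 was not in this list, and adding it, a choice made after the counts were seen, gave 9 of 115, or 7.83% (4.17 to 14.2), an interval that includes the 11.9% at equal strength. The closed ones were at Ltbp1, which encodes a protein that binds latent TGF-β, with 8.99 and 7.77, at the ubiquitin ligase gene Smurf2, with 7.37, and at the inhibitory Smad gene Smad6. Hippo and Notch genes held 3 of 74, or 4.05% (1.39 to 11.3), near Jag2, Vgll4 and Tead4. At equal strength 10.4% of all distal regions were closed, which lies within this interval. AP-1 subunit genes had 1 of 26, at Jdp2, or 3.85% (0.682 to 18.9), and ETS factor genes 1 of 29, near Spdef, or 3.45% (0.611 to 17.2). Ras-ERK feedback genes had 4 of 52, or 7.69% (3.03 to 18.2). Fold enrichments were 10.4 at 93.6 kb from Spred2, 8.31 at 178.0 kb from Dusp6 and 7.51 at 5.11 kb from Spry1. All of them are genes that restrain ERK signaling. Wnt pathway genes had 4 of 43, or 9.30% (3.68 to 21.6), including Wnt4, Wnt10a and Wnt11. Cell cycle and growth genes had 4 of 51, or 7.84% (3.09 to 18.5). Their named regions lay 27.1 kb from Cdkn1b, 191.7 kb from Cdk6 and 315.1 kb from Myc. The intervals of the AP-1, ETS, Ras-ERK, Wnt and cell cycle lists include the background. They also include the shares at equal strength, which ran from 8.63% for cell cycle to 15.8% for ETS. Neuronal genes of other tissues had 3 of 21, or 14.3% (4.98 to 34.6), against 17.9% at equal strength.

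**Figure D5:**
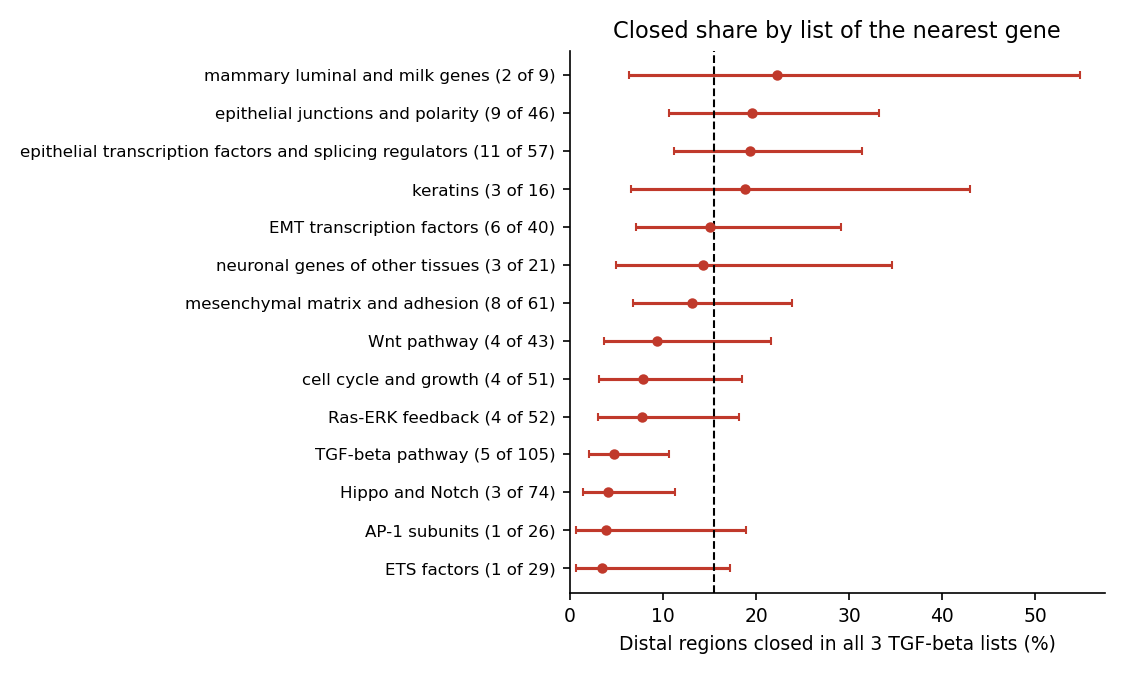
Closed share (%) of the distal regions nearest to the genes of each list, with 95% Wilson intervals and the counts in brackets, and a dashed line at the 15.42% of all distal regions. The TGF-β pathway (4.76%) and Hippo and Notch genes (4.05%) had intervals wholly below the line, but regions of equal strength stood at 11.3% and 10.4%, the latter within the Hippo and Notch interval. No list had an interval wholly above the line.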

How the data were processed

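FAIRE-seq of EpRas cells gave 4 peak lists, 1 for each group named in the labels, without replicates. The methods of the study name 2 biological replicates for its FAIRE-seq, and whether a list pools them is not stated. The authors trimmed the Ion Proton reads to 36 bp, mapped them to mm10 with Bowtie and called peaks at a q-value under 0.0001 with MACS2, given as version 2.1.0 in the submitters' processing notes. The deposited lists hold for each peak the authors' fold enrichment (a ratio), both the p-value and the q-value of the summit as -log10, and a score derived from the latter.

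Summit fragments and local background were solved from the deposited fold enrichment (pseudocount of 1) and Poisson -log10 p-value, which was matched within 0.001 in 100% of peaks. TSSs and features came from the basic GENCODE annotation vM21 of GRCm38, and bases from GRCm38.p6, whose chromosomes held all peaks. Motifs were searched on both strands in 500 bp around the middle of each region. Constant regions were weighted to the members over 18 bins of summit fragments. Intervals of shares are 95% Wilson intervals and those of differences are Newcombe intervals. Code was tested on simulated data. Python 3.11.15, numpy 2.4.6, pandas 2.3.3 and pysam 0.24.0 were used. The 10 members of highest fold enrichment, up to 10 genes with most members, and up to 3 members per gene list were named by rule. The members, motifs and gene lists were chosen with earlier results of these data known.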

Additional observations from a re-analysis of the deposited data

How the results depend on the processing

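Each result was recomputed with 1 choice changed at a time. The CTCF alternatives, the annotation and the E-box outside CTCF were added after the data had been seen. The number of members was 90 with at least 25 summit fragments and 3760 with siControl TGF-β left out of the rule, and stayed within 1.5 times of 2046 in the other 9 alternatives. No result changed sign. With siControl TGF-β left out of the rule, AP-1 in members was 35.5% with a difference of -29.7 points, and CTCF was 13.1% with a difference of 8.59. With set 1 left out the AP-1 difference was -35.2 and constant regions stood at 64.7%. With set 2 left out these were -34.9 and 63.0%, with CTCF at 5.18% in constant regions. Equal list lengths gave AP-1 shares of 30.8% and 70.1%. A 200 bp window gave AP-1 in 21.5% and 60.5%, ETS in 11.8%, the ZEB/SNAI E-box in 21.2% and a GC content of 47.5%. The peak itself gave AP-1 in 19.3% and 60.5%, ETS in 9.04%, the E-box in 17.5% (37.8% in 500 bp) and a GC content of 48.4%. AP-1 with C or G in the middle was found in 21.7% and 58.8%. ETS in its CCGG form stood at 2.00%. With at least 25 fragments ETS was 28.9%, GC content 49.0%, and CTCF 3.33% and 3.01% with a difference of 0.321. With 1 mismatch CTCF was 38.3% and 11.8%, a difference of 26.5. The cause of these shifts was not tested. No paired analysis was possible because each group had 1 list. Depth limits the set to regions of 10 or more fragments.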
